A study of Homo sapiens with 13 samples.

Results

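The genes described here encode the enzymes, regulators and carriers of cholesterol synthesis and of fatty acid synthesis. They are 30 genes listed by symbol and found by their Ensembl identifiers in both count tables, out of 62703 genes listed. They were chosen by pathway, with earlier results of these data known. The sterol branch holds 20 of them and the fatty acid branch 10. All 30 passed the filter on low counts in both cell lines, beside 16735 genes tested in SKOV3 and 18359 in OVCAR3.

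RNA was sequenced from 2 human ovarian carcinoma cell lines in 13 libraries. SKOV3 cells overexpressed RSF1delUAB, overexpressed RSF1, or carried a control vector, with 3 libraries in each of these groups. RSF1 is a histone chaperone and subunit of the RSF chromatin remodelling complex, and its UAB region binds ubiquitinated histone H2A. RSF1delUAB lacks that region. OVCAR3 cells expressed either the UAB peptide or a scrambled peptide, with 2 libraries each, and every OVCAR3 library came from cells given 2000 ng/mL doxycycline for 6 days. The labels give no promoter for the constructs and do not say whether a group is 1 clone or a pool, or whether replicates were separate cultures. P-values therefore measure the spread between these libraries, which may be technical.

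Cells build cholesterol from acetyl-CoA through mevalonate, isoprenoid units, squalene and lanosterol, and the last steps trim and reduce lanosterol to cholesterol. They build fatty acids from cytosolic acetyl-CoA, which is carboxylated, extended to palmitate, and then elongated, desaturated and placed in glycerolipids. The transcription factors SREBP2 (gene SREBF2) and SREBP1 (gene SREBF1) drive much of both branches. They are held in the endoplasmic reticulum by INSIG proteins while sterols are plentiful and are released to the nucleus when sterols fall.

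Promoter sequences of 5 members are shown because SREBP proteins work at these genes together with factors that bind CCAAT boxes, and because these members carry the results below. Of the 30 members, 27 had an entry in the RefSeq promoter table (GRCh38.p14), 18 of the sterol branch and 9 of the fatty acid branch. Each line holds the 250 bases before a start, read 5′ to 3′ on the gene's strand. Capitals mark the CCAAT box (CCAAT, or ATTGG where it lies on the other strand) and, in SREBF2, a match to the sterol regulatory element TCACNCCAC. The windows lie at chr22:41832855-41833104 (plus strand) for SREBF2, chr7:155297628-155297877 (plus) for INSIG1, chr5:111512536-111512785 (minus) for STARD4, chr4:165327419-165327668 (plus) for MSMO1 and chr10:100346983-100347232 (plus) for SCD.
SREBF2: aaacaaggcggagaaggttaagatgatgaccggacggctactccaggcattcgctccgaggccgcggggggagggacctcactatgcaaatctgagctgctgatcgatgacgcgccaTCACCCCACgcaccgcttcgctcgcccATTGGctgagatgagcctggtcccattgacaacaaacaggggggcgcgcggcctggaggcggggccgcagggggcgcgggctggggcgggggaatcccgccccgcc
INSIG1: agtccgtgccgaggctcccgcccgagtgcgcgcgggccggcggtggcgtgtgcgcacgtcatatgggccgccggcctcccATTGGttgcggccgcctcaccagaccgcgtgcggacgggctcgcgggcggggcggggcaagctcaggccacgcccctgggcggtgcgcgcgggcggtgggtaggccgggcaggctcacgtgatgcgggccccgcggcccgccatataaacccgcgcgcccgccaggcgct
STARD4: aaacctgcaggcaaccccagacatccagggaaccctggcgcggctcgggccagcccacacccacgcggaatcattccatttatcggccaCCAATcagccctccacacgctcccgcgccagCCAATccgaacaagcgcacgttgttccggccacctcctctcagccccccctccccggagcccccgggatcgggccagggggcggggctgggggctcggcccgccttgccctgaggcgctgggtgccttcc
MSMO1: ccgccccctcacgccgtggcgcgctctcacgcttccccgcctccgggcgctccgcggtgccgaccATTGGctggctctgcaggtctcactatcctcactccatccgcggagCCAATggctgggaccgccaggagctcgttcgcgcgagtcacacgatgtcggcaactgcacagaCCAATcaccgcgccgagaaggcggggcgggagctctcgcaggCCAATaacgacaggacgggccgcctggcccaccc
SCD: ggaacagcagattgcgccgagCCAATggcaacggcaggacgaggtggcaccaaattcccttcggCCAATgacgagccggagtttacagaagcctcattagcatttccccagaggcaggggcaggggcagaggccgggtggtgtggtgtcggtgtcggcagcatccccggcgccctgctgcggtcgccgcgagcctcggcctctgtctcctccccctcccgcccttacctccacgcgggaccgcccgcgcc

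A CCAAT box on either strand was found before at least 1 start of 16 of the 18 sterol-branch genes (88.9%) and of 4 of the 9 fatty-acid-branch genes (44.4%). Among all 27305 genes with such a window the share was 37%. The 2 sterol genes with no match were PMVK and CYP51A1. The full 9-letter sterol regulatory element was found only in SREBF2 among the members, with its first base at position -133 from the start, and in 1.09% of all genes. The E-box CACGTG was found before SC5D and INSIG1, and in 7.73% of all genes. The GC box GGGCGG was found before 17 of the 18 sterol genes and all 9 fatty acid genes, against 46.2% of all genes. In the members' windows no match of one motif overlapped a match of another. A match is a string of letters only.

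Total counts per library ran between 15194678 and 18748009 in SKOV3 and between 18160558 and 24026993 in OVCAR3. Levels are CPM, counts scaled to a common library total, adjusted by TMM, a between-library normalisation, and each line was scaled on its own. RSF1 itself checked the SKOV3 labels: it stood at 488 ± 25.6 CPM in RSF1delUAB libraries, at 719 ± 77 CPM in RSF1 libraries and at 44.0 ± 3.08 CPM in control libraries (SD, n = 3 each). The 2 constructs therefore also differed in RSF1 level, which cannot be told apart from the deletion. In OVCAR3, which was scaled apart, RSF1 stood at 687 ± 142 CPM with the UAB peptide and 636 ± 101 CPM with the scrambled peptide (SD, n = 2 each). RSF1 replicate 1 stood apart from its group: its chi-square per degree of freedom against the other RSF1 libraries was 14.4 and 16.4, and theirs against each other was 3.94. Transcripts that mark adipocytes or hepatocytes, cell types known for lipid synthesis, were at or near 0 in all groups, with 5 adipocyte markers summing to at most 1.63 CPM and 3 hepatocyte markers to at most 1.37 CPM. The sum of the 9 listed fibroblast markers differed between the SKOV3 groups. It was 391 to 395 CPM with RSF1delUAB, 256 to 262 CPM with RSF1 and 20.4 to 21.6 CPM with control. With both constructs FBLN1, MFAP5 and LUM led the sum. Not every marker had this order: COL1A1 averaged 17.5 CPM with RSF1delUAB and 18.9 CPM with RSF1. COL3A1 averaged at most 0.175 CPM in SKOV3, and PDGFRB was at 0 in RSF1delUAB and control libraries. In OVCAR3 the sum was 137 to 154 CPM with the UAB peptide and 169 to 194 CPM with the scrambled peptide. The part of the fibroblast markers in the results below was not tested. Since the samples are bulk RNA, fewer cells that express a gene and less RNA per cell cannot be told apart.

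Per kilobase of exon, a fatty acid gene gave the highest level in every group. In RSF1delUAB libraries SCD led with 118 ± 3.64 CPM per kilobase, followed by ACLY with 102 ± 2.53 CPM per kilobase and the squalene synthase gene FDFT1 with 84.2 ± 0.889 CPM per kilobase. In RSF1 libraries ACLY led with 68.7 ± 7.0 CPM per kilobase, FASN followed with 55.2 ± 8.42 CPM per kilobase, and SCD had rank 6 with 24.5 ± 1.89 CPM per kilobase. In control libraries the order was ACLY with 96.5 ± 1.76, SCD with 53 ± 1.13 and FASN with 51.2 ± 3.40 CPM per kilobase, and the last pair did not differ beyond its spread. In OVCAR3, SCD was first with the UAB peptide at 146 ± 16.8 CPM per kilobase and second with the scrambled peptide at 59.7 ± 8.26 CPM per kilobase (SD, n = 2 each). FADS1 had rank 5 with RSF1delUAB at 55.4 ± 1.19, rank 4 with RSF1 at 32.5 ± 1.96 and rank 17 with control at 12.8 ± 0.308 CPM per kilobase.

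The control libraries of the 2 lines differed most in TM7SF2, which encodes a sterol C14 reductase. It reached 31.7 ± 4.17 CPM per kilobase in OVCAR3 with the scrambled peptide (n = 2) and 0.63 ± 0.08 CPM per kilobase in SKOV3 with the control vector (n = 3). EBP, the sterol isomerase gene, followed with 9.39 ± 0.909 in OVCAR3 and 1.53 ± 0.217 CPM per kilobase in SKOV3. At the other end, ACLY stood at 27.9 ± 0.682 CPM per kilobase in OVCAR3 and 96.5 ± 1.76 in SKOV3, and the sterol carrier gene STARD4 at 5.57 ± 0.55 in OVCAR3 and 17.2 ± 1.06 in SKOV3. These levels come from tables scaled apart, and the lines also differ in construct and doxycycline, so no test was made.

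**Figure D1:**
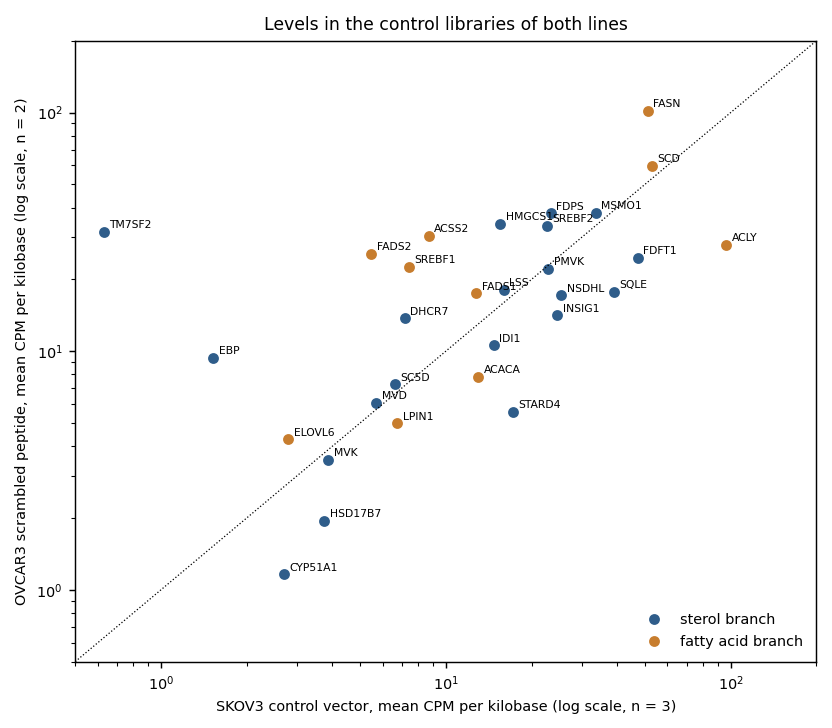
Mean level of each member in OVCAR3 libraries with the scrambled peptide (vertical axis, n = 2) and in SKOV3 libraries with the control vector (horizontal axis, n = 3), in CPM per kilobase of exon on log scales, with the dotted line marking equal levels. TM7SF2 lies farthest above the line, at 31.7 CPM per kilobase in OVCAR3 and 0.63 in SKOV3, and ACLY farthest below it.

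The 3 SKOV3 groups did not order the members in one way, but 2 features held for all 30. In no member was the RSF1 mean the highest of the 3 groups, and in no member was the RSF1delUAB mean the lowest. The RSF1delUAB mean was highest for 20 members and the control mean for 10. The RSF1 mean was lowest for 18 members and the control mean for 12. Genes with control lowest included SREBF1, SREBF2, FADS1, FADS2, SC5D and TM7SF2, and genes with control highest included MVK, FDPS, SQLE, MSMO1, HSD17B7 and ELOVL6.

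Summed over the branch, fatty acid genes took 0.307% of all counts in RSF1delUAB libraries (0.301% to 0.319%), 0.180% in RSF1 libraries (0.159% to 0.196%) and 0.178% in control libraries (0.173% to 0.181%). Sterol genes took 0.205% of counts with RSF1delUAB (0.204% to 0.205%), 0.127% with RSF1 (0.125% to 0.129%) and 0.148% with control (0.148% to 0.149%). Both sums were above those of the other SKOV3 groups in every RSF1delUAB library. The sums are dominated by the members with most reads, such as FASN, SCD, ACLY and FDFT1.

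RSF1delUAB against RSF1 asks what changes when the construct lacks the region that binds ubiquitinated H2A. Of the 30 members, 22 were higher with RSF1delUAB (adjusted p under 0.05, edgeR quasi-likelihood test with Benjamini-Hochberg adjustment over all genes) and none was lower, against 20.2% of all tested genes higher and 18.5% lower. With edgeR at an unadjusted p under 0.05, and with DESeq2 and limma-voom, 0 members were lower as well. The sterol branch had 14 of 20 higher and the fatty acid branch 8 of 10, and without RSF1 replicate 1 these were 16 and 8. The log2 fold change was above 0 for all 30 members, with a median of 0.62, where the median of all tested genes was -0.0017. It stayed above 0 for all 30 when the median of the gene's chromosome arm was subtracted.

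SCD, the stearoyl-CoA desaturase that makes monounsaturated fatty acids (ENSG00000099194, chromosome 10, 100347233 to 100364826, GRCh38), differed most. It stood at 610, 607 and 642 CPM in RSF1delUAB libraries, at 118, 138 and 129.6 CPM in RSF1 libraries, and at 283, 279 and 271 CPM in control libraries. No group overlapped another, with RSF1delUAB above control and RSF1 below it. RSF1delUAB over RSF1 gave a log2 fold change of 2.27 ± 0.07 (SE, edgeR adjusted p = 1.76e-15). Against control it was 1.16 for RSF1delUAB (adjusted p = 3.28e-12) and -1.11 for RSF1 (adjusted p = 8.12e-12).

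The sterol sensor gene INSIG1 (ENSG00000186480, chromosome 7, 155297776 to 155310235) had the same order of groups. Its level was 110, 108 and 107 CPM with RSF1delUAB, 55.4, 49.2 and 45.6 CPM with RSF1, and 86.6, 89.5 and 93.1 CPM with control. Every RSF1delUAB library was above every control library and every RSF1 library was below them. Over RSF1 its log2 fold change was 1.11 ± 0.08 (SE, edgeR adjusted p = 3.12e-10). INSIG1 and SCD were the only 2 members that were both higher with RSF1delUAB and lower with RSF1 than in control, and these 2 comparisons share the control libraries.

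STARD4, which carries cholesterol between membranes, had 100.2, 103 and 112 CPM with RSF1delUAB, 48.4, 56.5 and 46.5 CPM with RSF1, and 99.3, 90.8 and 102 CPM with control. RSF1delUAB and control overlapped, and RSF1 was below both. Its log2 fold change over RSF1 was 1.06 ± 0.08 (SE, edgeR adjusted p = 2.46e-09). MVK, the mevalonate kinase gene, behaved alike, with 32.1, 29.98 and 32.03 CPM with RSF1delUAB, 15.8, 15.8 and 13.8 CPM with RSF1, and 35.5, 35.6 and 33.5 CPM with control. Here the RSF1delUAB libraries lay a little below the control libraries and RSF1 far below both, with a log2 fold change of 1.05 ± 0.09 over RSF1 (SE, edgeR adjusted p = 1.16e-08).

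SC5D, the sterol C5 desaturase gene (ENSG00000109929, chromosome 11, 121292681 to 121313410), had 175, 166 and 176 CPM with RSF1delUAB, 77.1, 88.8 and 72.4 CPM with RSF1, and 68.0, 64.5 and 67.8 CPM with control. RSF1delUAB stood far above the other groups, which lay close to each other without overlap. Over RSF1 its log2 fold change was 1.12 ± 0.07 (SE, edgeR adjusted p = 2.68e-10).

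Both SREBP genes were higher with RSF1delUAB than with RSF1. SREBF2 (ENSG00000198911, chromosome 22, 41833079 to 41907307) averaged 382 ± 8.94 CPM with RSF1delUAB, 225 ± 16.7 CPM with RSF1 and 172 ± 5.50 CPM with control. SREBF1, which serves fatty acid synthesis more, had 145, 135 and 149.6 CPM with RSF1delUAB, 76.4, 68.5 and 80.0 CPM with RSF1, and 64.2, 59.9 and 59.7 CPM with control. For both genes the 3 groups did not overlap and followed the order RSF1delUAB, RSF1, control. Over RSF1 they were higher by 0.76 log2 units for SREBF2 and 0.93 for SREBF1 (edgeR adjusted p = 9.60e-09 and 3.05e-09).

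Along the mevalonate steps, HMGCS1, which makes HMG-CoA, was 0.76 log2 units higher and the isopentenyl isomerase gene IDI1 0.48 log2 units higher with RSF1delUAB than with RSF1. The kinase gene PMVK (0.22), the decarboxylase gene MVD (0.20) and the farnesyl diphosphate synthase gene FDPS (0.13) had small log2 fold changes that did not pass (edgeR adjusted p = 0.0888, 0.0580 and 0.164). All 3 squalene-to-lanosterol genes were higher: FDFT1 by 0.75, the squalene epoxidase gene SQLE by 0.67 and the lanosterol synthase gene LSS by 0.27 log2 units. Of the 8 genes that turn lanosterol into cholesterol, 5 were higher. After SC5D these were MSMO1, a C4 demethylase subunit, by 0.87, CYP51A1, the C14 demethylase, by 0.71, HSD17B7, a 3-ketosteroid reductase, by 0.67 and DHCR7, the last reductase, by 0.19 log2 units. TM7SF2 (0.39), EBP (0.31) and the C4 decarboxylase gene NSDHL (0.14) did not pass (edgeR adjusted p = 0.0770, 0.346 and 0.185).

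In the fatty acid branch, the citrate lyase gene ACLY, which supplies cytosolic acetyl-CoA, was 0.57 log2 units higher with RSF1delUAB than with RSF1. The acetyl-CoA synthetase gene ACSS2 was 0.23 log2 units higher, the carboxylase gene ACACA 0.46 and the fatty acid synthase gene FASN 0.39. The desaturase genes FADS1 and FADS2, which make polyunsaturated fatty acids, were 0.77 and 0.87 log2 units higher. The elongase gene ELOVL6 (0.28) and the phosphatidate phosphatase gene LPIN1 (0.15) did not pass (edgeR adjusted p = 0.0797 and 0.185). The call of DHCR7 (edgeR adjusted p = 0.0471) ended in 10 of 13 alternative fits, among them DESeq2 (adjusted p = 0.0778). The call of ACSS2 (edgeR adjusted p = 0.0157) ended without RSF1delUAB replicate 3 (adjusted p = 0.0629) and without RSF1 replicate 2 (adjusted p = 0.0575).

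**Figure D2:**
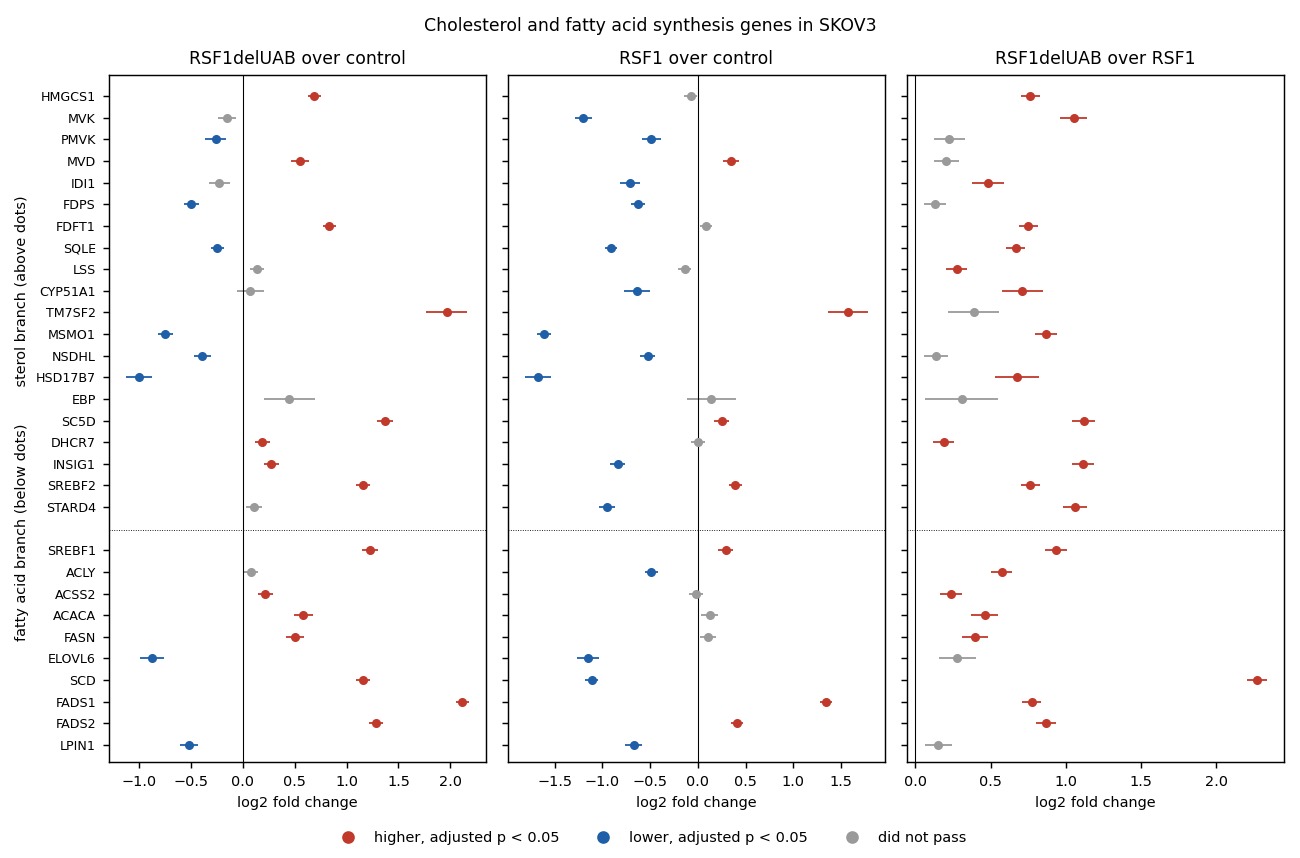
Log2 fold change of each member in SKOV3 with its SE (bars), for RSF1delUAB over control, RSF1 over control and RSF1delUAB over RSF1, with 3 libraries per group, the sterol branch above and the fatty acid branch below the dotted line. In the right panel all 30 points lie above 0 and 22 are called higher; in the other panels 15 and 7 are called higher and 8 and 15 lower.

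RSF1delUAB against control asks what the deleted construct changes from the vector. Of the 30 members, 15 were higher and 8 lower with RSF1delUAB, against 34.5% of all genes higher and 32.1% lower. The sterol branch was divided, with 8 of 20 higher and 6 lower, close to those shares. In the fatty acid branch 7 of 10 were higher and 2 lower. The median log2 fold change was 0.12 in the sterol branch, 0.54 in the fatty acid branch and 0.015 over all genes.

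FADS1, the delta-5 desaturase gene (ENSG00000149485, chromosome 11, 61799627 to 61829318), gave the largest difference. It stood at 553, 570.3 and 577 CPM with RSF1delUAB, at 309, 346 and 341 CPM with RSF1, and at 128, 129.991 and 134 CPM with control. The 3 groups were far apart. Its log2 fold change over control was 2.11 ± 0.06 for RSF1delUAB (SE, edgeR adjusted p = 2.57e-16) and 1.34 ± 0.06 for RSF1 (SE, edgeR adjusted p = 2.26e-13).

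FADS2, the delta-6 desaturase gene beside it, had 137, 135 and 149 CPM with RSF1delUAB, 75.8, 76.0 and 78.6 CPM with RSF1, and 56.3, 59.3 and 57.8 CPM with control. Its order of groups was that of FADS1, with smaller gaps and a log2 fold change over control of 1.28 for RSF1delUAB (edgeR adjusted p = 1.46e-12) and 0.41 for RSF1 (adjusted p = 2.23e-05). The 2 genes run on opposite strands and share 490 exonic bases, and the use of strand in the counting is not given in the sources used here.

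TM7SF2 had 8.77, 8.90 and 7.51 CPM with RSF1delUAB, 6.00, 5.08 and 8.17 CPM with RSF1, and 2.18, 2.39 and 1.87 CPM with control. Both constructs were above control, and they overlapped each other. Over control, TM7SF2 had a log2 fold change of 1.97 for RSF1delUAB (edgeR adjusted p = 3.27e-08) and 1.58 for RSF1 (adjusted p = 1.21e-06), at levels far below those of OVCAR3. SC5D and SREBF1, whose values are given above, were 1.37 and 1.22 log2 units higher with RSF1delUAB than in control (edgeR adjusted p = 2.94e-12 and 1.22e-11).

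Other members higher with RSF1delUAB than in control were SREBF2 by 1.16, FDFT1 by 0.83, HMGCS1 by 0.69, ACACA by 0.58, MVD by 0.55, FASN by 0.50 and INSIG1 by 0.27 log2 units. ACSS2 (0.22) and DHCR7 (0.19) passed with edgeR adjusted p = 0.0134 and 0.0279. These calls ended without control replicate 2 for ACSS2 (adjusted p = 0.0582) and without control replicate 3, among others, for DHCR7 (adjusted p = 0.0999). The 8 lower members were HSD17B7 by a log2 fold change of -1.0, ELOVL6 by -0.87, MSMO1 by -0.75, LPIN1 by -0.52, FDPS by -0.50, NSDHL by -0.39, PMVK by -0.26 and SQLE by -0.24. The call of PMVK (edgeR adjusted p = 0.0243) ended with upper-quartile scaling (adjusted p = 0.0587) and in 5 of the fits that left out 1 library. MVK, IDI1, LSS, CYP51A1, EBP, STARD4 and ACLY did not pass, with log2 fold changes between -0.23 and 0.45. Of these, EBP was called higher without RSF1delUAB replicate 3 (log2 fold change 0.69, edgeR adjusted p = 0.0120), and IDI1 (-0.23, edgeR adjusted p = 0.0526) was called lower under 4 alternatives, among them the replicate block (adjusted p = 0.0454).

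Whole chromosome arms moved with these comparisons against control. Medians over the genes of an arm were 0.95 log2 units higher with RSF1delUAB than in control on 22q, where SREBF2 lies, 0.50 on 5p (HMGCS1), 0.41 on 16q (MVD) and 0.40 on 17p (SREBF1). They were -0.73 on 4q (MSMO1, ELOVL6) and -0.53 on 1q (PMVK, FDPS, HSD17B7). Relative to its arm, SREBF2 was 0.21 log2 units higher with RSF1delUAB than in control, MSMO1 stood at -0.02, and PMVK (0.27) and FDPS (0.04) changed sign. FADS1 relative to its arm was still 1.97 and SCD 1.31 log2 units higher. The part of the arms in the members' differences was not tested. In RSF1delUAB against RSF1 the same arms had medians between -0.07 and 0.06, and relative to the arm SREBF2 was 0.77 and MSMO1 0.87 log2 units higher. Arms that differed more there were 17q, 12q and 8q, with medians of 0.22 to 0.23, and 10p (IDI1) with -0.20. Relative to the arm the log2 fold change was 0.82 for MVK, 0.43 for SQLE, 0.35 for ACLY, 0.24 for ACACA and 0.17 for FASN, and 0.68 for IDI1.

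RSF1 against control asks what intact RSF1 changes from the vector. Of the 30 members, 7 were higher and 15 lower with RSF1, against 34.3% of all genes higher and 32.9% lower. In the sterol branch 11 of 20 were lower and 4 higher, and in the fatty acid branch 4 of 10 were lower and 3 higher, close to the shares of all genes. Without RSF1 replicate 1 the fatty acid branch had 5 higher and 4 lower. The median log2 fold change was -0.51 in the sterol branch, 0.05 in the fatty acid branch and 0.015 over all genes.

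HSD17B7 (ENSG00000132196, chromosome 1, 162790702 to 162812823) was lowest relative to control. It had 9.15, 9.59 and 8.07 CPM with RSF1delUAB, 6.91, 4.64 and 5.28 CPM with RSF1, and 18.5, 17.5 and 17.7 CPM with control. Both constructs lay far below control without overlap, and RSF1 lay below RSF1delUAB. RSF1 over control gave a log2 fold change of -1.67 ± 0.14 (SE, edgeR adjusted p = 1.60e-09), and relative to the arm it was -1.15. The gene has named pseudogenes, so its counts are uncertain.

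MSMO1 (ENSG00000052802, chromosome 4, 165327667 to 165343164) had 57.6, 58.9 and 55.0 CPM with RSF1delUAB, 31.8, 33.3 and 28.9 CPM with RSF1, and 94.4, 93.8 and 99.8 CPM with control. The 3 groups were clearly apart, with RSF1 lowest. The log2 fold change of RSF1 over control was -1.62 ± 0.08 (SE, edgeR adjusted p = 2.22e-13), and relative to 4q, whose median was -0.69, it was -0.93.

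The other sterol members lower with RSF1 than in control were MVK at a log2 fold change of -1.20, STARD4 at -0.95, SQLE at -0.91, INSIG1 at -0.84, IDI1 at -0.71, CYP51A1 at -0.64, FDPS at -0.63, NSDHL at -0.53 and PMVK at -0.49. PMVK relative to its arm stood at 0.04. In the fatty acid branch ELOVL6 (-1.15), SCD (-1.11), LPIN1 (-0.67) and ACLY (-0.49) were lower. The 7 members higher with RSF1 were TM7SF2, FADS1, FADS2, SREBF2 (0.39), MVD (0.35), SREBF1 (0.29) and SC5D (0.25). Relative to the arm, SREBF2 (-0.55), SREBF1 (-0.15) and MVD (-0.12) changed sign.

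HMGCS1 (-0.07), FDFT1 (0.08), LSS (-0.14), EBP (0.14), DHCR7 (0.00), ACSS2 (-0.02), ACACA (0.12) and FASN (0.11) did not pass between RSF1 and control. For ACACA and FASN this rested on RSF1 replicate 1. ACACA had 150, 190 and 212 CPM with RSF1 and 170, 175 and 162 CPM with control, and FASN had 434, 517 and 591 CPM with RSF1 and 484, 505 and 443 CPM with control. In both genes RSF1 replicate 1 lay below every control library, and RSF1 replicates 2 and 3 lay above every control library. Without it the log2 fold changes were 0.25 and 0.21 (edgeR adjusted p = 0.000108 and 0.000422), and 5 fatty acid members were then higher in place of 3.

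Set side by side, the calls of the comparisons with control, which share the control libraries, fell into a few kinds. Higher with both constructs were MVD, TM7SF2, SC5D, SREBF2, SREBF1, FADS1 and FADS2. Lower with both were PMVK, FDPS, SQLE, MSMO1, NSDHL, HSD17B7, ELOVL6 and LPIN1. Over all tested genes 27.5% were higher with both and 25.4% lower with both, so these 7 and 8 of the 30 members are near the shares of all genes. Past the threshold with RSF1delUAB alone, and higher, were HMGCS1, FDFT1, DHCR7, ACSS2, ACACA and FASN. Past it with RSF1 alone, and lower, were MVK, IDI1, CYP51A1, STARD4 and ACLY.

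**Figure D3:**
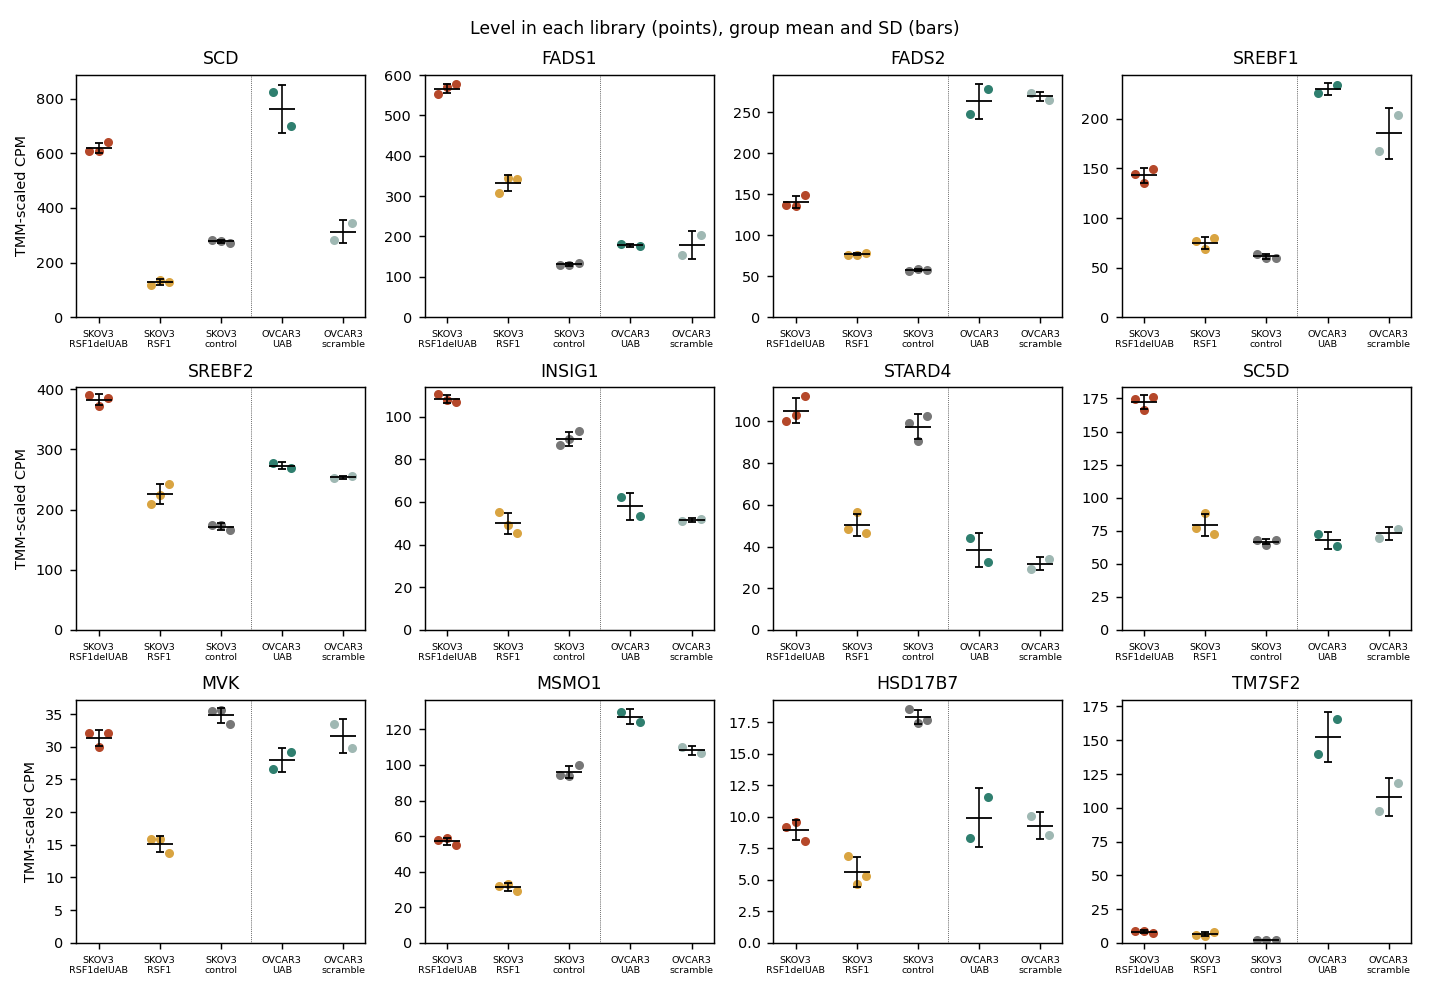
TMM-scaled CPM of 12 members in every library (points), with the group mean and SD (bars), for RSF1delUAB, RSF1 and control in SKOV3 (n = 3 each) and for UAB and scrambled peptide in OVCAR3 (n = 2 each), right of the dotted line. SCD and INSIG1 have RSF1delUAB above and RSF1 below control, FADS1 and SREBF2 step down across the 3 SKOV3 groups, and MSMO1 and HSD17B7 are highest in control.

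In OVCAR3 the question was what the UAB peptide changes from the scrambled one. Of the 30 members, 3 were higher with the UAB peptide and none was lower, against 5.45% of all genes higher and 5.46% lower. With edgeR at an unadjusted p under 0.05, 1 member (ACSS2) was lower, and with DESeq2 and limma-voom 0 were. The 3 higher members were SCD and ELOVL6 of the 10 fatty acid members and TM7SF2 of the 20 sterol members, and the sterol share is near that of all genes. Log2 fold changes were above 0 for 23 members and below 0 for 7, and the median was 0.19, where the median of all genes was 0.0089.

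SCD stood at 826 and 702 CPM with the UAB peptide and at 283 and 344 CPM with the scrambled peptide. Both UAB libraries were far above both scramble libraries. UAB over scramble gave a log2 fold change of 1.29 ± 0.14 (SE, edgeR adjusted p = 4.57e-05). SCD was thus the member with the largest difference here and in RSF1delUAB against RSF1 in SKOV3, and the lines were not tested against each other.

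ELOVL6 (ENSG00000170522, chromosome 4, 110045846 to 110199199), which elongates palmitate to stearate, the substrate of SCD, had 55.8 and 52.1 CPM with the UAB peptide and 31.2 and 30.9 CPM with the scrambled peptide. The groups were well apart, with a log2 fold change of 0.80 ± 0.14 (SE, edgeR adjusted p = 0.00173). In SKOV3, ELOVL6 had 10.1, 11.2 and 12.1 CPM with RSF1delUAB, 9.45, 8.07 and 9.93 CPM with RSF1, and 19, 20.4 and 21.7 CPM with control. TM7SF2 had 140 and 166 CPM with the UAB peptide and 98.0 and 118 CPM with the scrambled peptide. Its groups did not overlap, with a log2 fold change of 0.50 ± 0.15 (SE, edgeR adjusted p = 0.0397), but the call ended without UAB replicate 2 (log2 fold change 0.37, adjusted p = 0.205) or without scramble replicate 1 (log2 fold change 0.37, adjusted p = 0.341).

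The other 27 members did not pass. Among them FDFT1 averaged 168 ± 14.1 CPM with the UAB peptide and 128 ± 4.50 CPM with the scrambled peptide, a log2 fold change of 0.39 (edgeR adjusted p = 0.0727). HMGCS1 averaged 292 ± 21.7 CPM with the UAB peptide and 226 ± 12.9 CPM with the scrambled peptide, a log2 fold change of 0.37 (edgeR adjusted p = 0.0865). SQLE (0.34), DHCR7 (0.33), PMVK (0.33) and SREBF1 (0.31) had log2 fold changes of like size, and SREBF2 (0.10) and INSIG1 (0.17) smaller ones. The lowest were ACSS2 at -0.30, EBP at -0.20, MVK at -0.18 and NSDHL at -0.17. FADS1, which differed most between RSF1delUAB and control in SKOV3, stood at 181 and 175 CPM with the UAB peptide and 155 and 203 CPM with the scrambled peptide, which overlap, and its log2 fold change was -0.01.

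**Figure D4:**
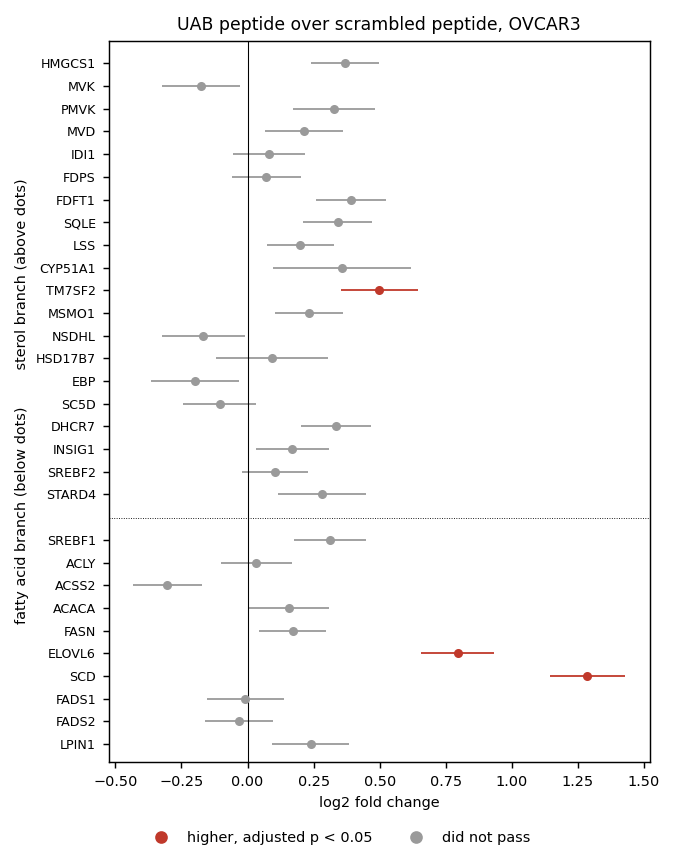
Log2 fold change of each member for UAB peptide over scrambled peptide in OVCAR3 with its SE (bars), 2 libraries per group, the sterol branch above and the fatty acid branch below the dotted line. SCD (1.29), ELOVL6 (0.80) and TM7SF2 (0.50) are called higher, and 23 of the 30 points lie above 0.

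By counts, the fatty acid genes took 0.306% of reads with the UAB peptide (0.292% and 0.320%) and 0.236% with the scrambled peptide (0.222% and 0.250%). The sterol genes took 0.191% in both UAB libraries and 0.155% and 0.163% in the scramble libraries. The fatty acid sums include SCD. The sterol sums include TM7SF2, which passed, and 19 members, HMGCS1 and FDFT1 among them, that did not pass one by one. With 2 libraries per group, a test in this line finds large differences more readily than small ones.

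Some members' counts are uncertain because their exons lie on or beside other genes. CYP51A1 shares 74.1% of its exonic bases with other listed genes, HMGCS1 37.7%, EBP 36.4%, FDPS 18.6% and IDI1 15%. FDPS has 8 named pseudogenes in the tables, and IDI1, CYP51A1, HSD17B7 and SCD have some as well. For SCD, INSIG1, SC5D, MSMO1, ACSS2, ACACA and FASN no exonic base was shared.

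Genes around these pathways were read from lists outside the 30 members. Of 14 other sterol synthesis and SREBP processing genes, 7 were higher and 1 lower with RSF1delUAB than with RSF1. Over all tested genes 20.2% were higher and 18.5% lower. SPRING1, which aids the processing of SREBP, averaged 76.6 ± 3.46 CPM with RSF1delUAB and 47.9 ± 3.79 CPM with RSF1 (log2 fold change 0.68, edgeR adjusted p = 2.99e-07), and ACAT2, the cytosolic thiolase gene, 72.8 ± 1.59 CPM with RSF1delUAB and 54.4 ± 1.27 CPM with RSF1 (log2 fold change 0.42). In OVCAR3 only POR of this list passed, and it was lower with the UAB peptide, where 5.46% of all tested genes were lower. POR, the gene of the reductase that feeds electrons to CYP51A1, averaged 142 ± 10.7 CPM with the UAB peptide and 215 ± 7.52 CPM with the scrambled peptide (log2 fold change -0.59, edgeR adjusted p = 0.00897).

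Of 16 tested genes for sterol transport, storage and efflux, 9 were higher and 3 lower with RSF1delUAB than with RSF1. Over all tested genes 20.2% were higher and 18.5% lower, so the 3 lower genes are near the share of all genes. SCARB1, a lipoprotein receptor, averaged 70.9 ± 2.29 CPM with RSF1delUAB and 29.6 ± 1.54 CPM with RSF1 (log2 fold change 1.26, edgeR adjusted p = 6.30e-11), and the endosomal carrier gene STARD3 was 0.93 log2 units higher. SCARB1, like SPRING1, lies on 12q and STARD3 on 17q, arms whose medians in this comparison were 0.23 and 0.22 log2 units. NCEH1, a cholesteryl ester hydrolase gene, was lower (-0.84), as was NPC1, which exports cholesterol from lysosomes (-0.60). In OVCAR3 3 of 18 were higher and 2 lower, against 5.45% of all tested genes higher and 5.46% lower. CH25H, which makes 25-hydroxycholesterol, averaged 1.60 ± 0.0486 CPM with the UAB peptide and 12.8 ± 1.15 CPM with the scrambled peptide (log2 fold change -2.99, edgeR adjusted p = 2.93e-06). SOAT1, which esterifies cholesterol for storage, averaged 57.7 ± 4.35 CPM with the UAB peptide and 26.1 ± 0.0761 CPM with the scrambled peptide (log2 fold change 1.15, edgeR adjusted p = 0.000119).

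Of 22 other tested genes of fatty acid synthesis, elongation and activation, 11 were higher and 5 lower with RSF1delUAB than with RSF1. Over all tested genes 20.2% were higher and 18.5% lower, so the 5 lower genes are not far from the share of all genes. The acyl-CoA synthetase gene ACSL1 averaged 151 ± 9.03 CPM with RSF1delUAB and 62.3 ± 5.57 CPM with RSF1 (log2 fold change 1.28, edgeR adjusted p = 3.98e-11), and ACSL3 was 0.73 log2 units higher. ME1, the malic enzyme gene, was lower (-0.57), as was FADS3 (-0.42), the neighbour of FADS1 and FADS2. In OVCAR3 none of 23 was higher with the UAB peptide by edgeR, DESeq2 or limma-voom (1 at an unadjusted p under 0.05). Of the 23, 6 were lower with the UAB peptide, among them ACSL5 (-1.99) and THRSP (-1.10), both low in reads. Over all genes tested in OVCAR3, 5.45% were higher and 5.46% lower.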

How the data were processed

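RNA was isolated with TRIzol and poly-A selected, per the labels' protocols. The deposited tables, 1 for each cell line, hold raw counts as whole numbers, with each gene's summed exon length; FastQC, STAR 2.7.9a, Subread, GRCh38, hg38 and GRCm38 are named in the submitters' processing notes. Which annotation release was used, and whether strand was, is not given in the sources used here. Samples were grouped by their labels. In the header of OVCAR3 scramble replicate 2 stands an unexplained letter F. A gene record broken over 3 lines was joined, giving 62703 genes.

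For every line 1 edgeR 4.0.16 model (R 4.3.3) held all its libraries, with TMM scaling, filterByExpr (minimum count 10), the quasi-likelihood test and a threshold of 0.05 after Benjamini-Hochberg adjustment across the genes tested. The biological coefficient of variation was 0.0734 in SKOV3 (6 residual degrees of freedom) and 0.124 in OVCAR3 (2). An SE is the size of the log2 fold change divided by the square root of F. The scripts were tested on simulated data. Levels are TMM-scaled CPM computed from the deposited counts, and an arm median leaves out the gene itself. Alternatives were RLE and upper-quartile scaling, no count filter, DESeq2 1.42.0, limma-voom (limma 3.58.1), the replicate number as a block, each library left out, only the compared groups in the model, and an offset per chromosome arm.

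The members and lists were chosen with earlier results of these data known. All 30 members are named. Those among the 5 largest absolute log2 fold changes of a comparison, past the threshold and with groups that do not overlap, have their value in every library; the values by library of ACACA and FASN, and of FADS1 in OVCAR3, were chosen after they were seen. Of each other list, up to 2 genes higher and 2 lower per comparison are named; 1 gene that this rule takes is not reported here.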

Additional observations from a re-analysis of the deposited data

How the results depend on the processing

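All 22 calls of RSF1 against control, 20 of 23 of RSF1delUAB against control, 20 of 22 of RSF1delUAB against RSF1 and 2 of 3 of the UAB peptide (SCD and ELOVL6) kept direction and side of the threshold under every alternative with a test; the lost ones are PMVK, DHCR7, ACSS2 and TM7SF2, given above. With the arm offset, signs turned in RSF1delUAB against control for PMVK (0.27) and FDPS (0.038), and in RSF1 against control for PMVK (0.035), MVD (-0.12), SREBF2 (-0.55) and SREBF1 (-0.15). With upper-quartile scaling HMGCS1 (0.0063) and ACSS2 (0.065) turned in RSF1 against control and FADS1 (0.0041) in OVCAR3, where limma-voom gave FADS1 0.0052, the replicate block 0.0050 and the crossed block 0.0037; none of these 3 genes was called there. Leaving out 1 library moved CYP51A1 between -0.017 and 0.17 in RSF1delUAB against control, DHCR7 between -0.024 and 0.063 and ACSS2 between -0.062 and 0.018 in RSF1 against control, and in OVCAR3 HSD17B7 between -0.16 and 0.32, ACLY between -0.068 and 0.14, ACACA between -0.036 and 0.33, FADS1 between -0.19 and 0.20 and FADS2 between -0.12 and 0.053, none of them called. It gave 3 to 5 fatty acid members higher in RSF1 against control and 0 to 1 sterol members higher in OVCAR3. Some members that did not pass were called under some alternatives: in RSF1delUAB against control IDI1 with no count filter (adjusted p = 0.0310), limma-voom (0.0483), the replicate block (0.0454) and only the compared groups (0.00158), LSS with upper-quartile scaling (0.0263) and only the compared groups (0.00793), a fit that also called STARD4 (0.0434) and ACLY (0.0330); FDFT1 in RSF1 against control with upper-quartile scaling (0.0243); and in RSF1delUAB against RSF1 PMVK (0.0151) and MVD (0.0218) without RSF1 replicate 1 and TM7SF2 (0.0106) without RSF1 replicate 3. The causes were not tested. Same-numbered libraries did not pair: the correlations of their deviations from the group means were between -0.06 and 0.095 in SKOV3 and -0.224 in OVCAR3. With the replicate block 0 sterol members were higher in OVCAR3 (TM7SF2 adjusted p = 0.113), and DHCR7 was lost in RSF1delUAB against RSF1 (adjusted p = 0.0687). Because the OVCAR3 correlation was negative, a crossed pairing was added after seeing the data. It gave 7 sterol and 4 fatty acid members higher and 1 fatty acid member lower. Over all 18359 tested genes it gave 2560 higher and 2537 lower, where the main fit gave 1001 and 1003. With 2 libraries per group the crossed correlation must be the opposite, 0.224. The pairing was thus chosen by the same data, and its added calls cannot count as evidence. Upper-quartile scaling moved the median of all genes to at most 0.0964, and the range of depth limits the low members most, TM7SF2 and EBP in SKOV3.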

Other observations

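Counts against the control vector in the lists around the members stand beside shares over all tested genes of 34.5% higher and 32.1% lower with RSF1delUAB, and 34.3% higher and 32.9% lower with RSF1. Of 16 tested genes for sterol transport, storage and efflux, 10 were higher and 3 lower with RSF1delUAB than in control (edgeR adjusted p under 0.05), and 5 were higher and 10 lower with RSF1 than in control. NR1H3, the sterol-sensing receptor LXR alpha, averaged 17.8 ± 2.08 CPM with RSF1delUAB, 13.6 ± 0.983 CPM with RSF1 and 3.13 ± 0.386 CPM with control. It lies on 11p, whose medians over control were 0.39 log2 units with RSF1delUAB and 0.34 with RSF1. LRP8, a lipoprotein receptor gene, averaged 32.3 ± 3.55 CPM with RSF1 and 79.7 ± 2.88 CPM with control (log2 fold change -1.30, edgeR adjusted p = 2.71e-11). SOAT1 was lower with RSF1delUAB than in control (-1.01); it lies on 1q. Of 14 other sterol synthesis and SREBP processing genes, 4 were higher and 7 lower with RSF1delUAB, and 5 were higher and 8 lower with RSF1. SPRING1 was the most strongly reduced of them with RSF1 (log2 fold change -1.55), and SCAP, the escort of SREBP proteins, was also lower (-0.72). SPRING1 lies on 12q and SCAP on 3p, whose medians with RSF1 over control were -0.43 and -0.54 log2 units. Of 22 other fatty acid synthesis genes, 11 were higher and 6 lower with RSF1delUAB, and 7 were higher and 7 lower with RSF1, the last pair near the shares of all genes. SLC25A1, which exports citrate for lipid synthesis and lies on 22q, was 1.39 and 1.13 log2 units higher with RSF1delUAB and with RSF1.

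Genes that store or burn fatty acids were counted in the same way. Of 14 tested genes of glycerolipid synthesis and lipid droplets, 5 were higher and 8 lower with RSF1delUAB than in control, 4 were higher and 9 lower with RSF1 than in control, and 5 were higher and 5 lower with RSF1delUAB than with RSF1 (median log2 fold change 0.0067). The 5 higher of 14 with RSF1delUAB is close to the share of all genes. Between the constructs 20.2% of all genes were higher and 18.5% lower, and between the OVCAR3 groups 5.45% were higher and 5.46% lower. GPAM, the mitochondrial glycerol-3-phosphate acyltransferase gene, averaged 71.7 ± 2.41 CPM with RSF1delUAB, 52.7 ± 5.03 CPM with RSF1 and 23.4 ± 0.836 CPM with control. GPAT3, an acyltransferase of the endoplasmic reticulum, averaged 18.2 ± 2.33 CPM with RSF1delUAB, 26.2 ± 0.289 CPM with RSF1 and 78.4 ± 0.930 CPM with control. GPAT3 lies on 4q, whose medians over control were -0.73 log2 units with RSF1delUAB and -0.69 with RSF1. Of 18 fatty acid oxidation genes, 12 were higher and 4 lower with RSF1delUAB than in control, 10 were higher and 5 lower with RSF1 than in control, and 5 were higher and 1 lower with RSF1delUAB than with RSF1. CPT1C averaged 9.45 ± 1.63 CPM with RSF1delUAB, 11.8 ± 1.40 CPM with RSF1 and 0.109 ± 0.101 CPM with control. In OVCAR3, 2 of 15 glycerolipid genes were higher with the UAB peptide and none lower by edgeR, DESeq2 or limma-voom (1 at an unadjusted p under 0.05): PLIN2, which coats lipid droplets, averaged 24.7 ± 0.245 CPM with the UAB peptide and 12.7 ± 1.37 CPM with the scrambled peptide (log2 fold change 0.96, edgeR adjusted p = 0.00137), and GPAM was 0.58 log2 units higher (adjusted p = 0.0307). Of the 18 oxidation genes, 2 were lower with the UAB peptide and none higher by edgeR, DESeq2 or limma-voom (2 at an unadjusted p under 0.05): CPT1A, which admits fatty acids to mitochondria, averaged 161 ± 5.53 CPM with the UAB peptide and 257 ± 9.97 CPM with the scrambled peptide (log2 fold change -0.67, edgeR adjusted p = 0.00334), and ACADVL was also lower (-0.47, adjusted p = 0.0374).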
